A study of Equus caballus with 4 samples.

Results

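The mitochondrial carriers of the SLC25 family and the uncoupling proteins were examined in horse satellite cells, stem cells of skeletal muscle, while they differentiated. Members were the gene probes of the array whose annotated name is SLC25A followed by a number, or UCP1, UCP2 or UCP3. They were 43 of 24998 gene names, with 70 of 43603 gene probes. Treated cells received 0.125 µM gamma-oryzanol (GO, which consists of ferulic acid esters found in rice bran oil) for 24 h, with 3 mM hydrogen peroxide (H2O2) present in the last 1 h. Control cells received no GO, and the DMSO vehicle was also in their medium. The labels do not say whether control cells received H2O2, whereas the study describes its control group as exposed to it. Both groups were taken on day 3 of differentiation from m. semitendinosus cultures of a single chosen primary line, so that the values describe cultures and not different horses. RNA was hybridised on 4 two-colour Agilent horse arrays of 1 slide, with treated RNA in red (Cy5) and control RNA in green (Cy3) on each. Dye and treatment therefore cannot be told apart on any array. The series text gives 4 control replicates, but the description of each array names control replicate 1, so that the spread between arrays may leave out part of the spread between control cultures. The median SD over the 4 arrays was 0.0997 in the treated channel and 0.0967 in the control channel, on the log2 scale.

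Most SLC25 carriers lie in the inner mitochondrial membrane and exchange metabolites between the matrix and the cytosol. The ADP/ATP carriers bring ADP in and ATP out, the phosphate carrier supplies phosphate for ATP synthesis, and other members move aspartate, malate, citrate, carnitine esters, nucleotides, cofactors and iron. Uncoupling proteins let protons return to the matrix without ATP synthesis. In muscle the ADP/ATP carrier SLC25A4 is the isoform typical of differentiated fibres, and SLC25A5 is the isoform typical of dividing cells.

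The sequences of the overlapping probes show why probe counts overstate the number of carriers. A set of 5 members (SLC25A4, SLC25A10, SLC25A13, SLC25A26 and SLC25A37) had 5 probes each, every probe shifted by 1 base from the next, and the probes of a gene shared 56 to 59 bases. Sequences run 5′ to 3′ and capitals mark the 56 bases that all 5 probes of the gene share. Positions are in EquCab1, the build of the array files.
SLC25A4 (probe A_69_P015921, chr27:24300357-24300416, minus strand): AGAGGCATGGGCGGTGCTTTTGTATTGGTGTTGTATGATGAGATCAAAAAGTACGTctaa
SLC25A4 (probe A_69_P015925, chr27:24300361-24300420, minus strand): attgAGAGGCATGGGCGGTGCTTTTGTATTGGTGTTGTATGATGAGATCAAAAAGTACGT
SLC25A13 (probe A_69_P078756, chr4:38951059-38951118, minus strand): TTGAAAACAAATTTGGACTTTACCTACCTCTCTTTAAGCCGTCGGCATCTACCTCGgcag
SLC25A13 (probe A_69_P078760, chr4:38951063-38951122, minus strand): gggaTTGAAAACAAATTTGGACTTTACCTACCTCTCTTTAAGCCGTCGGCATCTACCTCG
The other members had 1 or 2 probes. Those of SLC25A3, SLC25A16 and SLC25A47 are given for the phosphate carrier and for carriers past the threshold, with no capitals. The positions of SLC25A3 span more than the probe length, which is 60 bases.
SLC25A3 (chr28:22909078-22909221, plus strand): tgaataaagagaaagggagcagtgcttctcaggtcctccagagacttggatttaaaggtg
SLC25A16 (chr1:56151744-56151803, minus strand): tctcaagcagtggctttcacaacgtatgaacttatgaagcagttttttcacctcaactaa
SLC25A47 (chr24:41741089-41741148, plus strand): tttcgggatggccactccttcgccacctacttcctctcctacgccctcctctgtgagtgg

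The SLC25A5 probe lies on unplaced sequence of EquCab1 (295668319 to 295668378, minus strand) and holds a stop codon in each of its 3 forward reading frames. The SLC25A33 probe lies at chr2:39703800-39703859. Exons, introns and untranslated parts were not assigned, since no annotation of this build was used here. No probe of another gene on the array shared a stretch of 30 bases with a member probe on either strand (0 of 43603 probes compared). Transcripts that are not represented on the array, such as expressed pseudogenes, were not compared.

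A probe was tested when all 4 arrays had it well above background in red, or all 4 in green, which 50 member probes of 28 genes met. The 50 tested probes stand for 32 separate targets when overlapping probes are counted once. The other 15 genes were SLC25A20, SLC25A22, SLC25A25, SLC25A27, SLC25A29, SLC25A31, SLC25A40, SLC25A41, SLC25A42, SLC25A44, SLC25A45, SLC25A48, SLC25A53, UCP2 and UCP3. For 9 of these 15 genes no probe was well above background on any array in either channel, among them UCP3, the muscle uncoupling protein, and SLC25A31, an ADP/ATP carrier of germ cells. UCP2 was well above background on 2 arrays in the treated channel and on 3 in the control channel. No level or direction is given for these genes. No probe was annotated as SLC25A6 or UCP1. Where a gene had several tested probes, it is given by the one with the highest mean signal.

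Most carriers differed little between treated and control cells, and SLC25A5 fell the most. Of the 50 tested member probes, 7 passed the threshold (limma adjusted p under 0.05 over all 24233 probes tested), which is 14% against 17.1% of all probes. One of the 7 was higher with GO and H2O2 and 6 were lower. This is 2% of the member probes higher, against 9.49% of all probes, and 12% lower, against 7.58%. With Agilent's processed signals 2 were higher and 6 lower, since the probe of SLC25A34 also passed. The 7 probes belong to 5 genes, of which SLC25A5, SLC25A33, SLC25A16 and SLC25A13 were lower and SLC25A47 was higher. At the brightest probe, 4 of the 28 genes passed (14.3%, against 17.1% of 13693 genes), 1 higher (against 9.92% of genes) and 3 lower (against 7.16%), because the brightest probe of SLC25A13 did not. Only SLC25A5 also reached a fold change of 1.3, the limit in the methods of the study (1 of 50 member probes, against 1.42% of all probes). The gene list of the study was reported at a lower fold limit. Leaving out replicate 1, 2, 3 or 4 turned the count of 7 into 0, 4, 0 and 0 in that order. The count over all probes went from 4137 to 2, 3900, 38 and 0. Before adjustment 9, 11, 13 and 10 of the 50 member probes were then under 0.05, against 6485, 8638, 7309 and 6694 of all 24233 probes.

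The mean log2 ratio, in which a positive value is a higher signal with GO and H2O2, ranged from −0.42 to 0.29 over the 50 probes, and for 42 of them it was within 0.15 of 0. The median was −0.03, against 0.0029 over all probes tested, and 31 of the 50 probes were negative (62%, against 49.2% of all probes). On the single arrays the median of the member probes was 0.02, 0.0030, −0.07 and −0.05 on replicates 1 to 4. Without replicate 3 the median was 0.0080. For 21 member probes the 4 arrays shared 1 sign (42%, against 43.8% of all probes), 7 higher and 14 lower. The median SD over the arrays was 0.0959, close to the 0.0934 of all probes.

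**Figure D1:**
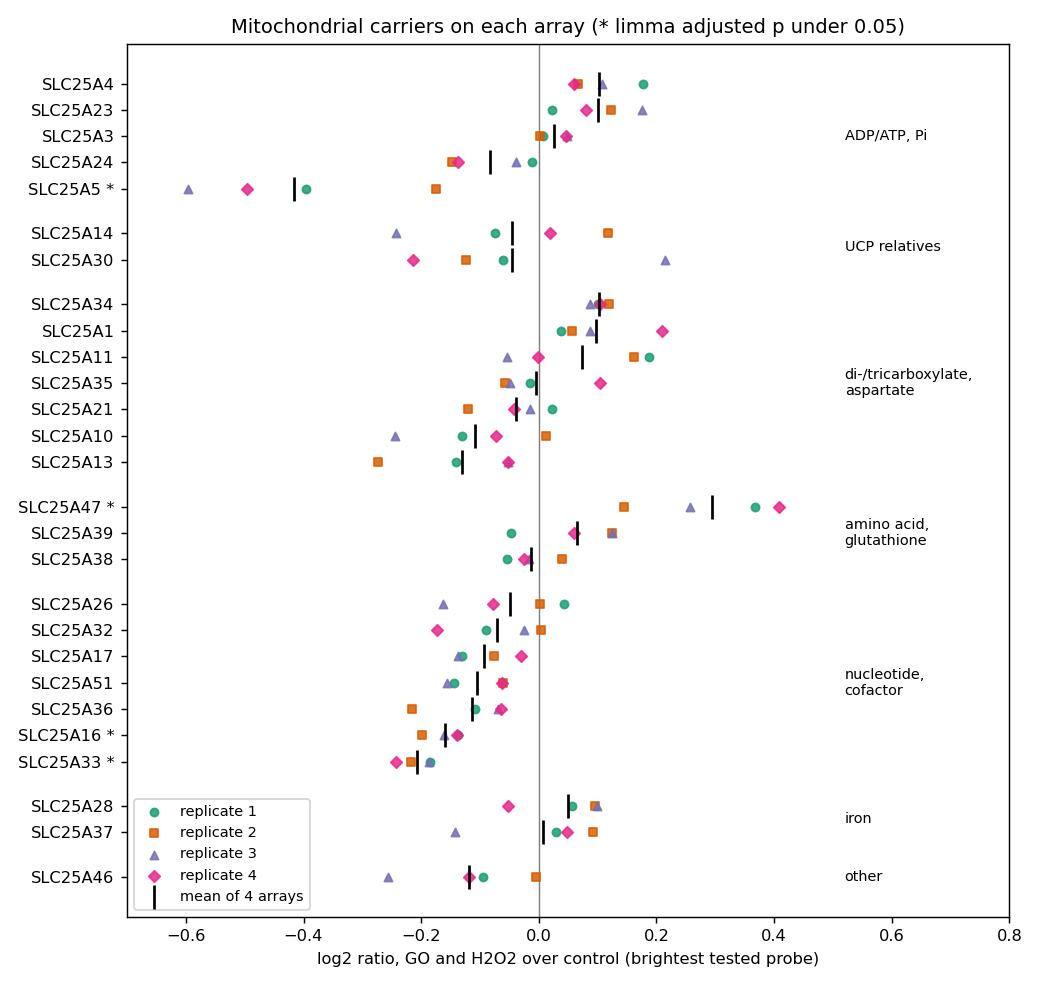
Log2 ratio of GO and H2O2 over control (x axis) for the brightest tested probe of each carrier reported here (y axis, by transport role), with coloured symbols for replicates 1 to 4 and a black bar for their mean. SLC25A5 lies at −0.42 and SLC25A47 at 0.29, while most carriers lie around 0.

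**Figure D2:**
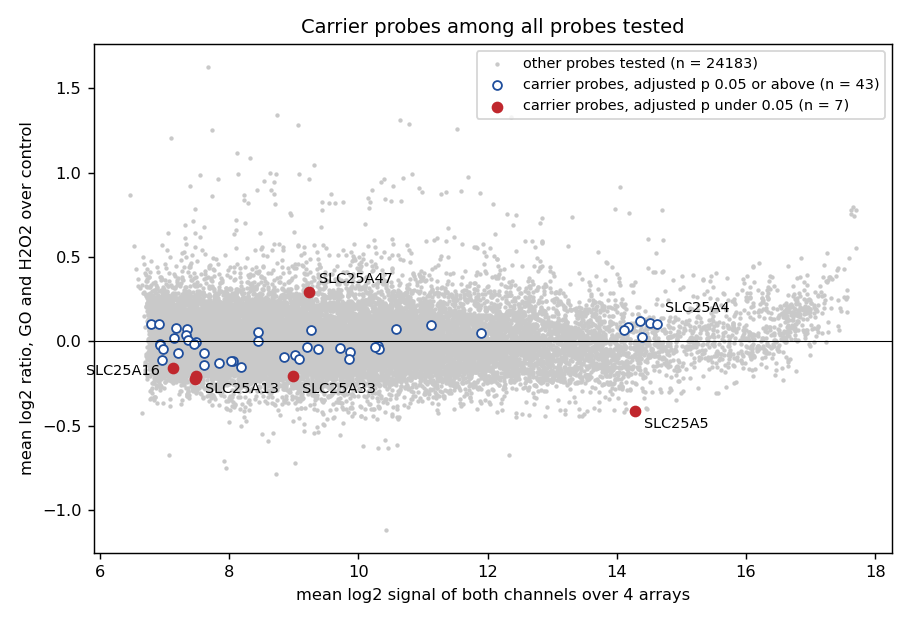
Mean log2 ratio over 4 arrays (y axis) against mean log2 signal (x axis) for the probes tested, with the 7 carrier probes past the threshold in red, the other 43 carrier probes as open circles and other probes in grey. SLC25A5 stands below the other bright carriers, which include the 5 probes of SLC25A4.

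Among the ADP/ATP and phosphate carriers, SLC25A5 fell and the others did not pass. The normalised log2 signal of SLC25A5 was 14.45, 14.50, 14.53 and 14.51 in control cells on replicates 1 to 4. In treated cells it was 14.06, 14.33, 13.93 and 14.01. All 4 treated values lay below all 4 control values, and the treated values spread more. The log2 ratio was −0.40, −0.17, −0.60 and −0.50, with a mean of −0.42 ± 0.18 (SD, n = 4 arrays; limma adjusted p = 0.02003), a 1.33-fold lower signal. Leaving out replicate 1, 2, 3 or 4, the limma adjusted p of SLC25A5 was 0.0872, 0.0117, 0.0622 and 0.0909. In bulk RNA, fewer cells of a kind and less RNA per cell cannot be told apart.

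SLC25A4, the ADP/ATP carrier of muscle fibres, had a control signal of 14.61, 14.63, 14.50 and 14.56 and a treated signal of 14.79, 14.70, 14.61 and 14.62 (log2) at its brightest probe. The treated signal was the higher on every array, but the groups overlapped. The log2 ratio was 0.18, 0.07, 0.11 and 0.06, with a mean of 0.10 ± 0.05 (SD, n = 4 arrays), and it did not pass (limma adjusted p = 0.120). Its 5 probes had means between 0.07 and 0.12, and 0 of them passed. Over the 5 probes the arrays averaged 0.20, 0.09, 0.13 and −0.02, so that the sign on replicate 4 depended on the probe. When arrays were centred on their medians instead of loess, the ratio of SLC25A4 was 0.23, also short of the threshold.

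SLC25A3, the phosphate carrier, had log2 ratios of 0.0076, 0.0017, 0.05 and 0.05 and a mean of 0.03 ± 0.02 (SD, n = 4 arrays; limma adjusted p = 0.647). Its mean was 0.13 with arrays centred on their medians and 0.06 with a running median over signal, and it did not pass under either (adjusted p = 0.864 and 0.286). The ratio of SLC25A4 exceeded that of SLC25A5 by 0.57, 0.24, 0.70 and 0.55 on the 4 arrays, a mean difference of 0.52 ± 0.20 (SD). The ratio of SLC25A3 exceeded that of SLC25A5 by 0.44 ± 0.20, and that of SLC25A4 exceeded SLC25A3 by 0.08 ± 0.07. At the brightest probe of each gene, each of these 3 differences was positive on 4 of 4 arrays. Each had a two-sided exact sign-flip permutation p of 0.125 (0.125 after Benjamini-Hochberg adjustment over the 3), the smallest that 4 arrays allow. The difference between SLC25A4 and SLC25A3 follows from the others, so the 3 are not independent. Averaged over its 5 probes, SLC25A4 had −0.02 on replicate 4, below the 0.05 of SLC25A3, so that this difference was not positive on every array. The ATP-Mg/phosphate carriers SLC25A23 and SLC25A24 had mean log2 ratios of 0.10 and −0.08 and did not pass (limma adjusted p = 0.139 and 0.205). The dimmer SLC25A24 probe had −0.00082 (0.992).

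**Figure D3:**
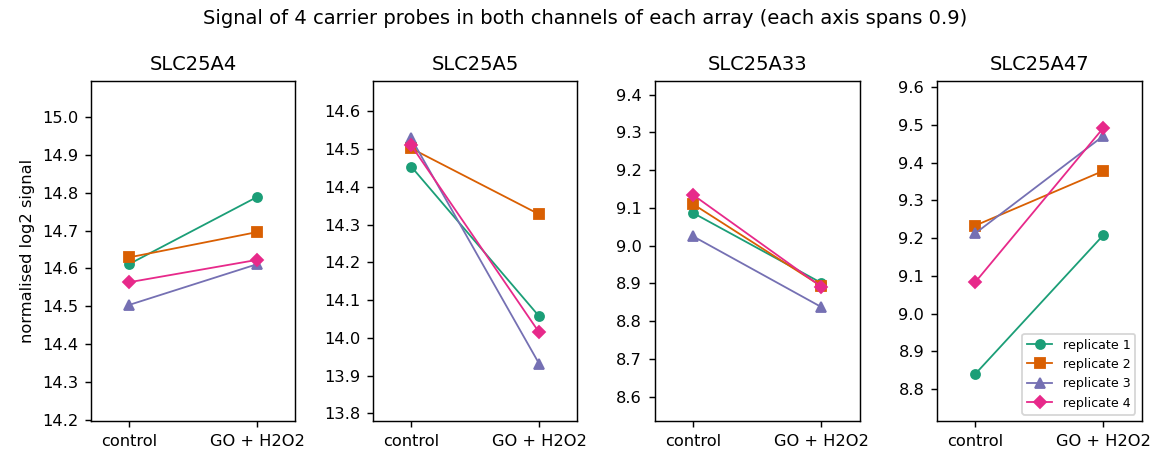
Normalised log2 signal (y axis) in the control and treated channels of the same array (x axis), 1 line per replicate, for SLC25A4, SLC25A5, SLC25A33 and SLC25A47, with each y axis spanning 0.9. SLC25A5 and SLC25A33 drop on each of the 4 arrays and SLC25A47 climbs on each.

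SLC25A5 was set beside markers of cycling cells and of muscle, which were fixed as lists. Of 5 cycling markers 4 had a tested probe (CDK1, MKI67, CCNB1 and PCNA), and 0 of them passed (limma adjusted p from 0.174 to 0.462; 0 also had an unadjusted p under 0.05). Their median log2 ratio was 0.41 on replicate 2, where all 4 had a positive ratio, and −0.28, −0.75 and −0.52 on the arrays 1, 3 and 4. For CDK1, the kinase that drives entry into mitosis, the values on replicates 1 to 4 were −0.42, 0.40, −0.92 and −0.78. SLC25A5 was lowest on replicate 3, followed by replicates 4, 1 and 2, and CDK1, MKI67 and CCNB1 had this order too. PCNA had another order, with −0.23, 0.30, −0.29 and −0.20 on replicates 1 to 4. Unlike the 4 markers, SLC25A5 was also lower on replicate 2. The summed signal of the cycling markers ranged from 5599 to 9225 in treated cells and from 6814 to 9561 in control cells, and each of the 4 was well above background on every array in control cells. Of 11 muscle and satellite cell markers 9 were tested, all 9 had a positive ratio and 6 passed. This is 66.7% higher, against 9.92% of all genes at the brightest probe. The per-array medians of the 9 markers were 0.30, 0.33, 0.42 and 0.16. Their summed signal was 309641 to 351696 in treated and 246744 to 278882 in control cells. ACTC1 was the brightest of them (mean log2 signal 17.43) and weighs most in this sum. The part of either marker group in the ratios of the carriers was not tested.

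**Figure D4:**
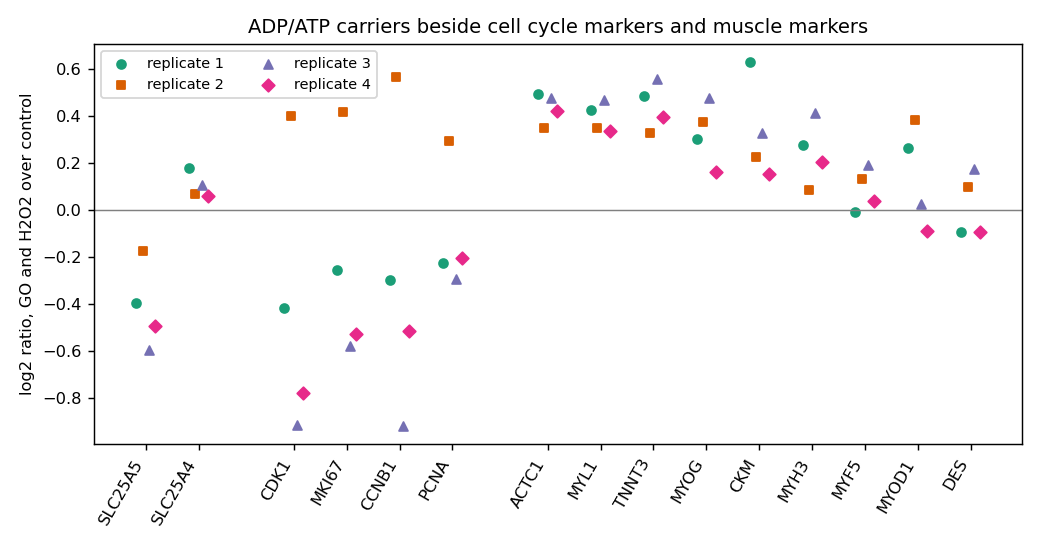
Log2 ratio of GO and H2O2 over control (y axis) on replicates 1 to 4 (symbols) for SLC25A5 and SLC25A4, for 4 cell cycle markers and for 9 muscle markers (x axis). The cell cycle markers are above 0 on replicate 2 only, whereas SLC25A5 is below 0 on all 4 arrays.

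Markers of other cells were partly present. Of 8 fibroblast markers 5 were tested, of which LUM was lower (log2 ratio −0.43, limma adjusted p = 0.0130) and THY1 higher (0.28, adjusted p = 0.0290). COL1A2 (0.30), COL3A1 (0.23) and DCN (−0.10) did not pass (adjusted p = 0.0914, 0.134 and 0.127), and PDGFRA and TCF21 were not tested. The summed signal of the 5 ranged from 367249 to 431477 in treated and from 303175 to 376314 in control cells. COL1A2 and COL3A1 were the brightest of them (mean log2 signal 17.56 and 16.93). Of the adipocyte markers ADIPOQ, FABP4, LEP and LPL were not tested for lack of signal, and CIDEA was higher (0.27, adjusted p = 0.0179), with a signal of 3083 to 3558 in treated and 2664 to 2854 in control cells. None of 5 endothelial markers was tested. Of the leukocyte markers CD14 was lower (−0.17, adjusted p = 0.0385), CD68 was at 0.0049, and their sum was 3237 to 3697 in treated and 3583 to 4117 in control cells. CD3E and ITGAM were not tested. PAX7, the defining satellite cell factor, was not among the gene names used, while MYF5, MYOD1 and MYOG were all tested. The part of these other cells in the carrier ratios was not tested.

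Nucleotide and cofactor carriers had a median log2 ratio of −0.10 at the brightest probe. Of 8 tested genes 2 passed, both lower (against 7.16% of all genes lower at the brightest probe). SLC25A33 moves pyrimidine nucleotides into mitochondria. Its log2 signal was 9.09, 9.11, 9.02 and 9.13 in control cells and 8.90, 8.89, 8.84 and 8.89 in treated cells. The groups did not overlap, and the spread within each was small. The ratio was −0.18, −0.22, −0.19 and −0.24, with a mean of −0.21 ± 0.03 (SD, n = 4 arrays; limma adjusted p = 0.0220), a 1.15-fold lower signal. SLC25A33 passed without replicate 2 (limma adjusted p = 0.0373), but not without replicate 1 (0.0910), 3 (0.0645) or 4 (0.0925).

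SLC25A16, a carrier tied to mitochondrial coenzyme A, had control signals of 7.27, 7.20, 7.18 and 7.16 and treated signals of 7.14, 6.9997, 7.01 and 7.02 on the log2 scale. These values lie near the dim end, and all control values were above all treated values. The ratio was −0.14, −0.20, −0.16 and −0.14, with a mean of −0.16 ± 0.03 (SD, n = 4 arrays; limma adjusted p = 0.0372). The other SLC25A16 probe, on adjoining sequence, was well above background on 1 array in each channel and was not tested. SLC25A16 did not pass without any of the 4 arrays in turn (limma adjusted p from 0.0760 to 0.122) or without background correction (0.0532). Further members of this role gave values between −0.11 and −0.05 and did not pass. They were SLC25A17 of the peroxisome, SLC25A26 (S-adenosylmethionine), SLC25A32 (folate and flavin), SLC25A36 (pyrimidine nucleotides) and SLC25A51 (NAD). Of SLC25A51 the dimmer probe had −0.15 (adjusted p = 0.0593) and the brighter −0.11 (0.110), on separate targets.

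Among the carriers of di- and tricarboxylates, keto acids and aspartate, 0 of 7 genes passed with limma at the brightest probe, and their median log2 ratio was −0.0044. SLC25A13, the aspartate/glutamate carrier citrin of the malate-aspartate shuttle, fell at 3 of its 5 overlapping probes. Those 3 had mean ratios of −0.20, −0.21 and −0.22 (limma adjusted p = 0.0296, 0.0403 and 0.0290). The other 2, the brightest included, had −0.13 (adjusted p = 0.115) and −0.14 (0.0776). All 5 probes were lower on all 4 arrays. Averaged over the 5 probes the ratio was −0.15, −0.25, −0.11 and −0.22 on replicates 1 to 4, with a mean of −0.18, and it passed (adjusted p = 0.0336). The call thus rests on which of the near-identical probes stands for the gene, and it was held by 1 of the probes without replicate 2 and by 0 without any other array. Probes annotated by description as SLC25A12, the other aspartate/glutamate carrier, or as similar to it do not carry the gene name, so they are no members. The 4 such probes had ratios between −0.12 and 0.09 and did not pass (adjusted p from 0.107 to 0.859).

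The citrate carrier SLC25A1 had log2 ratios of 0.04, 0.06, 0.09 and 0.21 on replicates 1 to 4, with a mean of 0.10 ± 0.08 (SD, n = 4 arrays; limma adjusted p = 0.163). The oxoglutarate carrier SLC25A11 had 0.19 and 0.16 on replicates 1 and 2 and −0.05 and −0.00072 on replicates 3 and 4 (mean 0.07 ± 0.12, adjusted p = 0.362). For the dicarboxylate carrier SLC25A10 the values at the brightest probe were −0.13, 0.01, −0.24 and −0.07 (mean −0.11 ± 0.11, adjusted p = 0.174), and 3 of its 5 probes could be tested. Its other tested probes, with nearly the same sequence, had means of −0.016 and −0.023 (limma adjusted p = 0.866 and 0.755). SLC25A34 had 0.10, 0.12, 0.09 and 0.10, a mean of 0.10 ± 0.01 that did not pass (adjusted p = 0.0950). Its signal was well above background in control cells on 3 of the 4 arrays, and it did pass with Agilent's processed signals, with normexp and offset 0 and without background correction.

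SLC25A47, described as a carrier of liver mitochondria, was the 1 member that rose. Its log2 signal was 8.84, 9.23, 9.21 and 9.08 in control cells and 9.21, 9.38, 9.47 and 9.49 in treated cells. The treated signal was the higher on every array, while the treated value of replicate 1 lay below the control values of replicates 2 and 3. The ratio was 0.37, 0.14, 0.26 and 0.41, with a mean of 0.29 ± 0.12 (SD, n = 4 arrays; limma adjusted p = 0.0225), a 1.23-fold higher signal. SLC25A47 passed without replicate 2 (limma adjusted p = 0.0178), but not without replicate 1 (0.0989), 3 (0.0646) or 4 (0.0936). SLC25A38 (glycine) and SLC25A39 (glutathione) had ratios of −0.01 and 0.07 and did not pass. The probe of SLC25A20, the carnitine/acylcarnitine carrier needed for fatty acid oxidation, was well above background on 0 arrays in treated and on 1 array in control cells.

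The iron carriers SLC25A28 and SLC25A37, the mitoferrins, did not pass. SLC25A28 had log2 ratios of 0.06, 0.10, 0.10 and −0.05 on replicates 1 to 4, with a mean of 0.05 ± 0.07 (SD, n = 4 arrays; limma adjusted p = 0.443). The brightest of the 5 SLC25A37 probes had 0.03, 0.09, −0.14 and 0.05, with a mean of 0.0066 ± 0.10 (adjusted p = 0.936), and its sign changed with the processing. Of the relatives of the uncoupling proteins, SLC25A14 and SLC25A30 both had ratios on either side of 0, with means of −0.04 and −0.05. SLC25A46, which acts in the shape of mitochondria, had −0.12 at its brighter probe (adjusted p = 0.139) and −0.07 at the other.

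The 5 genes with overlapping probes show how far nearly the same sequence repeats on an array. The SD between the tested probes of a gene on a single array had a median of 0.0629, and the SD of their mean between arrays had a median of 0.0891. For SLC25A26 the probe means were 0.05 and 0.03 on replicates 1 and 2 and −0.21 and −0.09 on replicates 3 and 4, so that the arrays differed more than the probes (SD between probes of 0.0269 to 0.0652 on the 4 arrays, SD between arrays of 0.118).

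**Figure D5:**
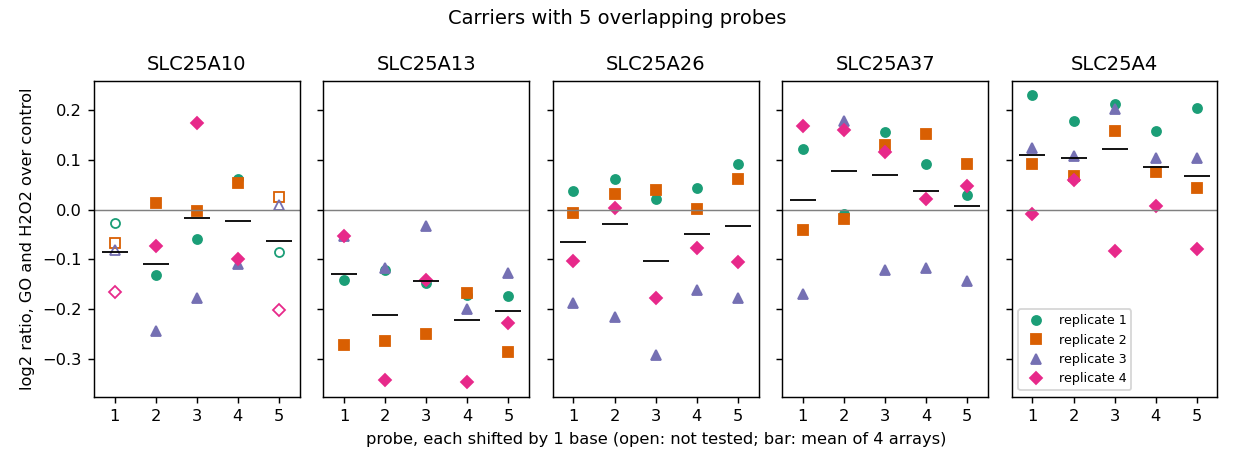
Log2 ratio of GO and H2O2 over control (y axis) for 5 genes with 5 probes each (x axis, shifted by 1 base), with symbols for replicates 1 to 4, a bar for the mean and open symbols for probes not tested. All points of SLC25A13 lie below 0, and SLC25A26 separates replicate 3 from replicates 1 and 2.

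Of the other genes of mitochondrial transport, MDH2, MPC1 and TIMM9 fell. The lists hold the pyruvate carrier, channels and calcium entry, the import machinery, shuttle and carnitine enzymes, further inner membrane transporters, and regulators of mitochondrial genes. At the brightest probe 1 of 14 genes of pyruvate, channel and calcium entry passed (limma, lower), 1 of 14 of carrier import and insertion (lower), 1 of 9 of shuttle, creatine kinase and carnitine enzymes (lower), 0 of 9 of other inner membrane transporters and 0 of 8 regulators. Over all genes at the brightest probe 17.1% passed and 7.16% were lower. Before adjustment 8900 of all 24233 probes had a limma p under 0.05. Among the listed genes that did not pass, ABCB6 and SFXN2 of the other inner membrane transporters were under it and lower. Of the regulators PPARGC1B was under it and higher, and TFAM, GABPA and TFB2M were under it and lower. In the remaining lists the same held for SLC8B1 and GOT2, both higher. It also held for TOMM6, TOMM20, TIMM10B, MDH1 and CPT2, all lower.

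MDH2, the mitochondrial malate dehydrogenase of the malate-aspartate shuttle, had log2 ratios of −0.33, −0.21, −0.24 and −0.25 and a mean of −0.25 ± 0.05 (SD, n = 4 arrays; limma adjusted p = 0.0183). Its 5 probes passed without exception. Whether the probes of MDH2, MPC1 or TIMM9 overlap was not examined, so they may not be separate measurements. MPC1, a subunit of the pyruvate carrier, had −0.16, −0.16, −0.45 and −0.26 (mean −0.26 ± 0.14, adjusted p = 0.0344), with 3 of 5 probes past the threshold and all 5 lower. TIMM9, a chaperone that guides carriers across the intermembrane space, had −0.21, −0.21, −0.23 and −0.09 (mean −0.18 ± 0.06, adjusted p = 0.0357), and 1 of its 2 probes passed. MTCH2 of the import list is described on the array as mitochondrial carrier 2 and is no member by name. Its brighter probe had −0.06 and did not pass (limma adjusted p = 0.313). The other MTCH2 probe had −0.19 and passed (0.0340). The voltage-dependent channels VDAC1, VDAC2 and VDAC3 of the outer membrane had 0.09, −0.07 and −0.06 and did not pass. MDH2 and MPC1 passed without replicate 2 (limma adjusted p = 0.0234 and 0.0352). Without replicate 1, 3 or 4 they did not, at 0.0867, 0.0604 and 0.0822 for MDH2 and 0.0964, 0.0767 and 0.120 for MPC1. TIMM9 did not pass without any 1 of the arrays (0.0652 to 0.132). Averaging its 5 probes (−0.20, limma adjusted p = 0.0510) or using Agilent's processed signals (0.0539) also took MPC1 out of the calls, and MDH2 was at −0.15 with arrays centred on their medians (0.853).

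As a group the carriers were set beside nuclear-encoded oxidative phosphorylation subunits and other solute carriers. At the brightest probe 4 of 48 oxidative phosphorylation subunits passed (8.33%, 2 higher and 2 lower), with a median log2 ratio of −0.03. Of the tested genes in other SLC families 16 passed (15.8%, 11 higher and 5 lower), with a median of 0.0062. For the 28 mitochondrial carriers these were 4 (14.3%, 1 higher and 3 lower) and −0.04, and for all 13693 genes 17.1% and 0.0088. The differences between these groups were not tested.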

How the data were processed

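The members and gene lists were chosen with earlier results of these data known. The authors extracted spot intensities of 4 arrays with Agilent Feature Extraction 10.10.1.1, as the file headers give it. The deposited mean and background intensities are unprocessed, and the processed intensities had background subtraction, detrending and dye normalisation (linear and lowess). A deposited log10 ratio sets the processed red against the processed green signal, and the value table of the authors repeats it (largest difference 0, column medians 0).

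Here the mean intensities were background-corrected (normexp, offset 50) and loess-normalised within arrays (span 0.3, control spots at weight 0) with limma 3.58.1 in R 4.3.3. Controls and outlier spots (7 to 16 gene spots per array) were left out, and spots of a probe were averaged. Saturated gene spots numbered 0. Between 54.9% and 61.4% of gene spots were well above background, and the number of arrays limits the precision. The p-values measure the spread between these arrays only. The mean log2 ratio was tested against 0 (lmFit, eBayes, two-sided), adjusted after Benjamini-Hochberg over 24233 probes. The code was tested on simulated data. The ratio pairs the channels of an array, whose deviations correlated at 0.36, 0.118, 0.356 and 0.582. Channel signals are given after Aquantile normalisation. Gene names are those of the array, and 1 carrier is not reported here. Named with values were carriers past the threshold, a fixed set of carriers, and at most 3 genes past it per pathway list. Other genes named were chosen after their values were seen. Alternatives changed the background correction, signals, normalisation, filter, variance model, pairing, test (the Student's test of the study) and arrays.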

Additional observations from a re-analysis of the deposited data

Results flagged for a closer look

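The log2 ratio of TIMM9 on replicate 4 was −0.0873. The other arrays had −0.23 to −0.21, and by Dixon's criterion the gap was too wide for a group of 4. Such a gap occurred in 1 of 16 sets of values examined, and about 1 in 20 arise by chance.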

How the results depend on the processing

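The count of 7 member probes lay at 7 or 8 after a running median over signal, under both other filters, with limma's trend and robust estimation, with either form of Agilent's processed values (signals or deposited ratios) and with normexp at offset 0 or background left in. The number higher was 2 in place of 1 with Agilent's values in either form, at offset 0, with background left in and without a filter. With median centring 12 probes in all and 0 members passed. Before adjustment 3 members and 1571 probes in all had a limma p under 0.05 there. With the methods' t-test 5 probes in all and 0 members passed, and 14 members and 6931 probes in all were under 0.05 unadjusted. The cause of these losses was not tested. With no replicate block 594 probes in all passed and 1 member did, SLC25A5 (0 higher, 1 lower, 1 gene at the brightest probe; limma adjusted p = 0.0320), where the spread that both channels share stays in the error. Leaving out 1 array, 0 to 3900 probes in all passed, 0 to 4 members, 0 to 1 higher, 0 to 3 lower and 0 to 3 genes at the brightest probe. The member median kept its sign except without replicate 3. SLC25A37 turned to −0.0160 with median centring and to −0.0011, −0.0220 and −0.0071 without replicates 1, 2 and 4, and was 0.0565 without replicate 3. With the mean over the probes of a gene SLC25A13 passed and MPC1 did not (limma adjusted p = 0.0510), and MPC1 was also lost with both forms of Agilent's values (0.0539). None of the calls of carriers, MDH2, MPC1 and TIMM9 held with median centring or the methods' t-test. With no replicate block SLC25A33 (0.0619), SLC25A47 (0.110), SLC25A16 (0.133), MDH2 (0.124), MPC1 (0.118) and TIMM9 (0.215) were lost. Signal over background left 20 member probes untested, and the 4 arrays share 1 dye orientation.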
